A study of Mus musculus with 2 samples.

Results

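Cytochrome P450 genes (Cyp) encode haem enzymes that insert oxygen into lipids, hormones, vitamins and foreign chemicals. The members were the protein-coding genes of GENCODE M21 on mm10 whose symbol is Cyp, a family number, a subfamily letter string and a gene number. They came to 94 of 21938 protein-coding genes. Symbols of another form, such as Cyp51, Cyp3a41a or Cyp4a12b, were not members. Each member was described by the CTCF peaks near its transcription start sites (TSS).

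CTCF was mapped by ChIP-seq, which sequences the DNA that an antibody against a protein recovers, in whole stomach of newborn mice of strain B6NCrl at postnatal day 0. There was 1 group of 2 samples, numbered as biological replicates 1 and 2 and drawn from the same donor and tissue sample per the labels, so the spread between them may be technical. Sex was not collected, control libraries are not analysed here, and no contrast between conditions could be made. The peak lists hold no transcript levels, so the tissue label was not checked against marker genes, and a weak peak and a peak present in few cells cannot be told apart in whole tissue.

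P450 enzymes fall into families that work in different chemistry. Families Cyp2, Cyp3 and Cyp4 grew by tandem duplication and oxidise drugs, toxins and fatty acids, mostly in liver, kidney, lung and gut, while the steroid, bile acid, cholesterol and vitamin D enzymes are mostly encoded by genes standing alone. CTCF is a zinc finger protein that binds an oriented DNA motif. It stops cohesin as cohesin extrudes chromatin loops, and loops usually join motifs that point towards each other.

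The sequences that carry the results below are given 5′ to 3′ on the strand of the motif, in lower case with the 19 bases of the CTCF match in capitals. They were read from the GRCm38 reference, the assembly of the peak coordinates. The consensus of the matrix, built from strong peaks of chromosome 1, was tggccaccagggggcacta. The first 3 are the strongest peak with a motif in each class of members, on chr7:27159965-27160025 (+) for Cyp2t4, chr5:139364316-139364376 (+) for Cyp2w1 and chr12:108333163-108333223 (+) for Cyp46a1. The next 2 are the peaks bordering the Cyp2c genes, chr19:38982140-38982200 (+) and chr19:40225592-40225652 (−), which point towards each other across the genes. Then come matches in the introns of Cyp17a1, chr19:46670838-46670898 (+), and Cyp1a1, chr9:57688237-57688297 (+).
Cyp2t4 peak: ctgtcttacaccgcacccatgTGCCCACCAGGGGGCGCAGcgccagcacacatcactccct
Cyp2w1 peak: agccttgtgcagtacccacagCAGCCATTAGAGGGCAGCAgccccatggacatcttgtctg
Cyp46a1 peak: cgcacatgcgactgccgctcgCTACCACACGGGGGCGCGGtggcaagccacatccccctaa
Cyp2c left border: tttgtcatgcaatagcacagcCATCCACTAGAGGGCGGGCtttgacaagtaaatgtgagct
Cyp2c right border: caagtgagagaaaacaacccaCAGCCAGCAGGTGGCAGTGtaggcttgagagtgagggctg
Cyp17a1 peak: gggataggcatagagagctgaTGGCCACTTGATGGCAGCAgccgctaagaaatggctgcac
Cyp1a1 peak: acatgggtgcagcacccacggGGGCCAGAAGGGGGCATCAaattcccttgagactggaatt

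The last 3 sequences lie inside the Cyp2c and Cyp3a genes. The first is the highest-scoring match under a peak inside the Cyp2c genes, chr19:39098949-39099009 (−). The others are the highest-scoring matches without a peak in the longest peak-free stretches of the Cyp2c genes, chr19:39785624-39785684 (−) in an intron of Cyp2c40, and of the Cyp3a genes, chr5:145967252-145967312 (−) between genes. The Cyp2c match tied in score with another match of its stretch, also without a peak.
Cyp2c inside peak: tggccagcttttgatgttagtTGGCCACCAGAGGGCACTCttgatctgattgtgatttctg
Cyp2c match without a peak: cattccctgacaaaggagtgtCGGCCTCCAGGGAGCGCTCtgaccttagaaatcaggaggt
Cyp3a match without a peak: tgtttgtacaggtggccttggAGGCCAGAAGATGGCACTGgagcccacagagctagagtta

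Of the 94 members, 58 lay in 8 tandem runs, defined as 3 or more Cyp2, Cyp3 or Cyp4 genes of one family with at most 200 kb between neighbours. There were 14 steroid and sterol genes outside these runs, of families Cyp7, Cyp8, Cyp11, Cyp17, Cyp19, Cyp21, Cyp24, Cyp27, Cyp39 and Cyp46. Of these, Cyp11b1 and Cyp11b2 neighbour each other as a pair. The remaining 22 were Cyp1, Cyp20 and Cyp26 genes and 15 Cyp2, Cyp3 and Cyp4 genes outside runs. Not all of these 15 stand alone. Cyp4f14, Cyp4f13, Cyp3a57, Cyp3a16 and Cyp4a29 lie beside a run of their family but beyond the 200 kb limit. Gaps were measured between members, so genes with symbols of another form did not bridge them.

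Cyp genes of tandem runs had a CTCF peak nearby far less often than the other Cyp genes. An optimal peak had its summit within 10 kb of a TSS at 16 of the 58 tandem-run genes (27.6%, exact 95% interval 16.7 to 40.9), at 18 of the 22 remaining genes (81.8%, 59.7 to 94.8) and at 11 of the 14 steroid and sterol genes (78.6%, 49.2 to 95.3). Over all members it was 45 of 94 genes (47.9%, 37.5 to 58.4), against 72.3% of all protein-coding genes. The share of tandem-run genes was 51.0 percentage points below that of steroid and sterol genes (difference −51.0, Newcombe 95% interval −68.0 to −21.9). These intervals cover counting error only, since neighbouring genes are not independent. With runs defined by at most 500 kb between neighbours, a peak lay within 10 kb at 19 of 64 tandem-run genes (29.7%). It lay there at 15 of 16 remaining genes (93.75%).

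The gap between the classes held at other distances. Within 1 kb, 8 tandem-run genes (13.8%), 9 remaining genes (40.9%) and 8 steroid and sterol genes (57.1%) had a peak, against 45.6% of all coding genes. Within 50 kb, 39 tandem-run genes (67.2%), 21 remaining genes (95.5%) and all 14 steroid and sterol genes had one, against 88.0% of all coding genes. The median distance from a TSS to the nearest peak was 27570 bp for tandem-run genes, 3280 bp for remaining genes and 718 bp for steroid and sterol genes, against 1555.5 bp for all coding genes.

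**Figure D1:**
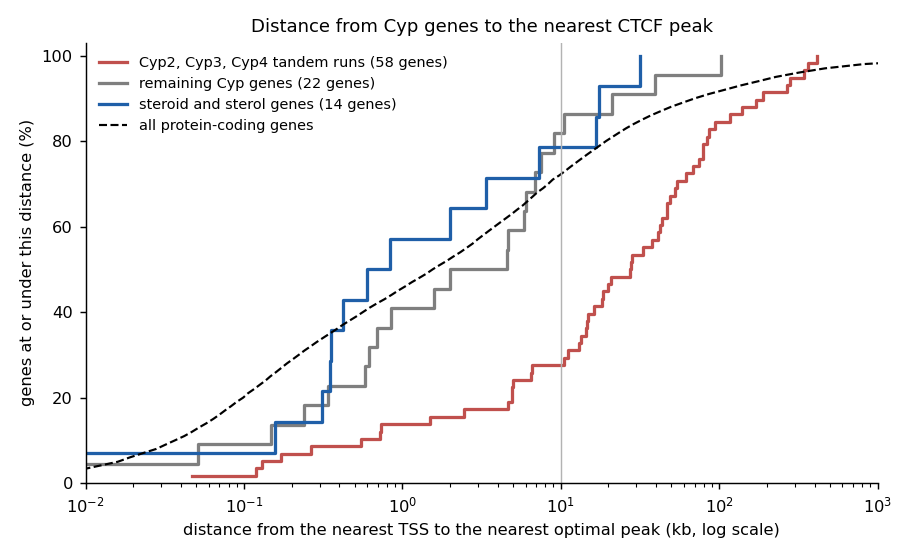
Percent of genes (y axis) whose nearest TSS lies at or under a distance (x axis, kb, log scale) of the nearest optimal CTCF peak, for the 58 tandem-run genes (red), the 22 remaining Cyp genes (grey), the 14 steroid and sterol genes (blue) and all protein-coding genes (dashed). The grey vertical line marks 10 kb, where the tandem-run curve stands at 27.6% and the others between 72.3% and 81.8%.

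The strongest peak within 10 kb had a median signal of 273 at the 16 tandem-run genes (13.5 to 418), 140 at the 18 remaining genes (24.7 to 545) and 204 at the 11 steroid and sterol genes (28.6 to 488), against 236 for all coding genes with a peak. Signal is the peak caller's own value in the authors' list of optimal peaks and ranks peaks within that list only. The ranges of the 3 classes overlapped almost wholly, and low values also occurred in runs, such as 38.3 at Cyp2c70 and 13.5 at Cyp4b1.

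**Figure D2:**
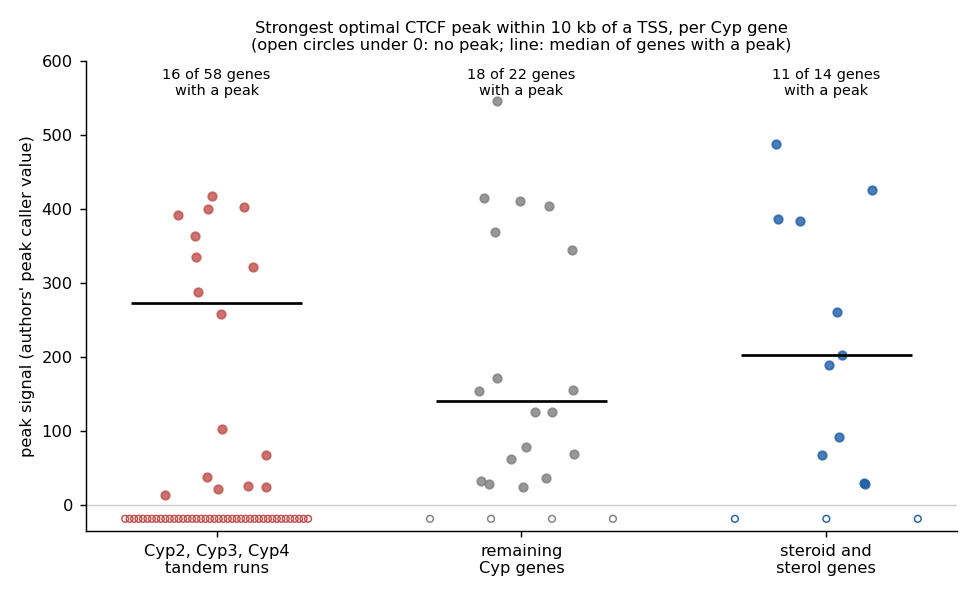
Signal of the strongest optimal peak within 10 kb of a TSS (y axis, the authors' peak caller value) for each Cyp gene, by class. Filled points are genes with a peak, bars are their medians (273, 140 and 204 from left to right), and open circles under 0 are genes with no peak.

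Sequence that occurs once in the genome was scarcer around tandem-run genes. The median share of 36-base windows within 10 kb of the gene start that occur once on the chromosomes was 75.3% at tandem-run genes, 93.4% at remaining genes and 94.99% at steroid and sterol genes, and it fell as low as 35.4% at Cyp2c29. Among members with at least 80% of such windows, a peak was found at 13 of 24 tandem-run genes (54.2%, 32.8 to 74.4). It was found at 18 of 21 remaining genes (85.7%, 63.7 to 97.0) and 10 of 12 steroid and sterol genes (83.3%, 51.6 to 97.9). These intervals overlapped. Under 80%, a peak was found at 3 of 34 tandem-run genes (8.82%, 1.86 to 23.7). In a sample of every 20th coding gene, the same shares were 749 of 935 genes (80.1%, 77.4 to 82.6) at 80% or more and 37 of 162 genes (22.8%, 16.6 to 30.1) below. The part of sequence uniqueness in the lower share of tandem-run genes was not tested further, and the sources used here do not say how reads with several genomic matches were treated.

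The 8 runs differed widely among themselves. The Cyp4f run on chromosome 17 (Cyp4f39 to Cyp4f15), whose enzymes hydroxylate fatty acids and leukotrienes, had a peak at 5 of 6 genes. The run from Cyp2b23 to Cyp2t4 on chromosome 7 had one at 4 of 8 genes, and the neighbouring run from Cyp2s1 to Cyp2a4 at 2 of 5. The Cyp2d run on chromosome 15 had 2 of 8, the Cyp4a14 to Cyp4b1 run on chromosome 4 had 1 of 5, the Cyp2j run on chromosome 4 had 1 of 8, the Cyp2c run on chromosome 19 had 1 of 14 and the Cyp3a run on chromosome 5 had 0 of 4. Genes at the ends of runs had a peak in 7 of 16 cases (43.8%) and inner genes in 9 of 42 (21.4%), a split made after seeing the data. The exact intervals of the end genes (19.8 to 70.1%) and the inner genes (10.3 to 36.8%) overlapped. The median share of unique 36-base windows was 86.3% at end genes and 74.7% at inner genes, and its part in this split was not tested.

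The inside of the runs held few peaks compared with the pooled flanks. There were 54 optimal peaks in 3.998 Mb between the outer ends of the first and last genes, or 13.5 per Mb, against 75 in the 100 kb flanks, or 46.9 per Mb, and 28.1 per Mb over all chromosomes. Inside was below the pooled flanks in each of the 8 runs, from 0 against 30 per Mb (Cyp3a) to 43.9 against 50 per Mb (Cyp4f). Single flanks were uneven. The left and right flanks held 0 and 14 peaks at Cyp2b23 to Cyp2t4, 0 and 6 at Cyp3a, and 11 and 2 at Cyp2s1 to Cyp2a4. Unique 36-base windows made up 66.3% of the inside and 78.3% of the flanks, against 82.5% over all chromosomes. The relaxed lists of the single replicates held 43.5 peaks per Mb inside the runs in replicate 1 and 51.8 in replicate 2, against 113 genome-wide in each. Their flanks were not counted.

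**Figure D3:**
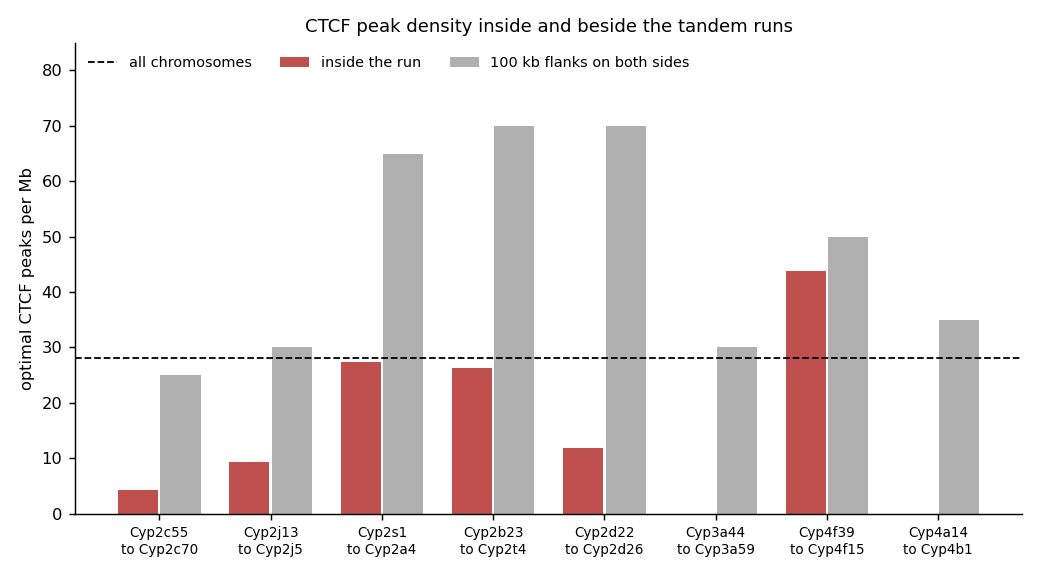
Optimal CTCF peaks per Mb (y axis, bars from 0) inside each tandem run of Cyp genes (red) and in the 100 kb flanks on both sides (grey), with the value over all chromosomes as a dashed line (28.1). Runs are ordered by length, longest first; the Cyp3a and Cyp4a14 to Cyp4b1 runs had 0 peaks inside.

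CTCF motifs were also fewer inside the runs, and fewer of them lay in unique sequence. Matches at the level met by 1% of random windows numbered 99.3 per Mb inside the runs, 189 in the flanks and 129 over all chromosomes. A peak summit lay within 50 bp of the centre of 10.3% of the 397 matches inside, 19.5% of the 302 in the flanks and 16.1% of all matches in the genome. Counting only matches with at least 90% of unique 36-base windows within 100 bp, a peak covered 27 of 120 inside (22.5%, 15.4 to 31.0), 52 of 163 in the flanks (31.9%, 24.8 to 39.6) and 936 of 4287 in a sample of every 50th match of the genome (21.8%, 20.6 to 23.1). Such matches made up 30.2% of the matches inside the runs, 54.0% in the flanks and 62.5% in the genome sample. GC content was 41.2% inside and 42.9% in the flanks.

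Peaks inside the runs and at their borders overlapped widely in signal. The median was 104 for the 54 inside peaks (19.02 to 403, 95% interval of the median 59.9 to 139) and 96.7 for the 16 border peaks, the first outside each end (13.5 to 426, interval 26.0 to 375). The order of the 2 medians depended on the definition of a run. With at most 500 kb between neighbours they were 80.5 inside and 225 at the borders, and with at most 100 kb 93.7 inside and 42.6 at the borders. A motif lay wholly within 50 bp of the summit in 39 inside peaks (72.2%, 58.4 to 83.5) and 13 border peaks (81.3%, 54.4 to 96.0). Of the 13 border motifs, 6 pointed into their run and 7 away from it. A match reaching just beyond this window at the left border of the Cyp4a14 to Cyp4b1 run pointed into the run and was not counted. Only the Cyp2c run had motifs pointing inwards at both borders.

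**Figure D4:**
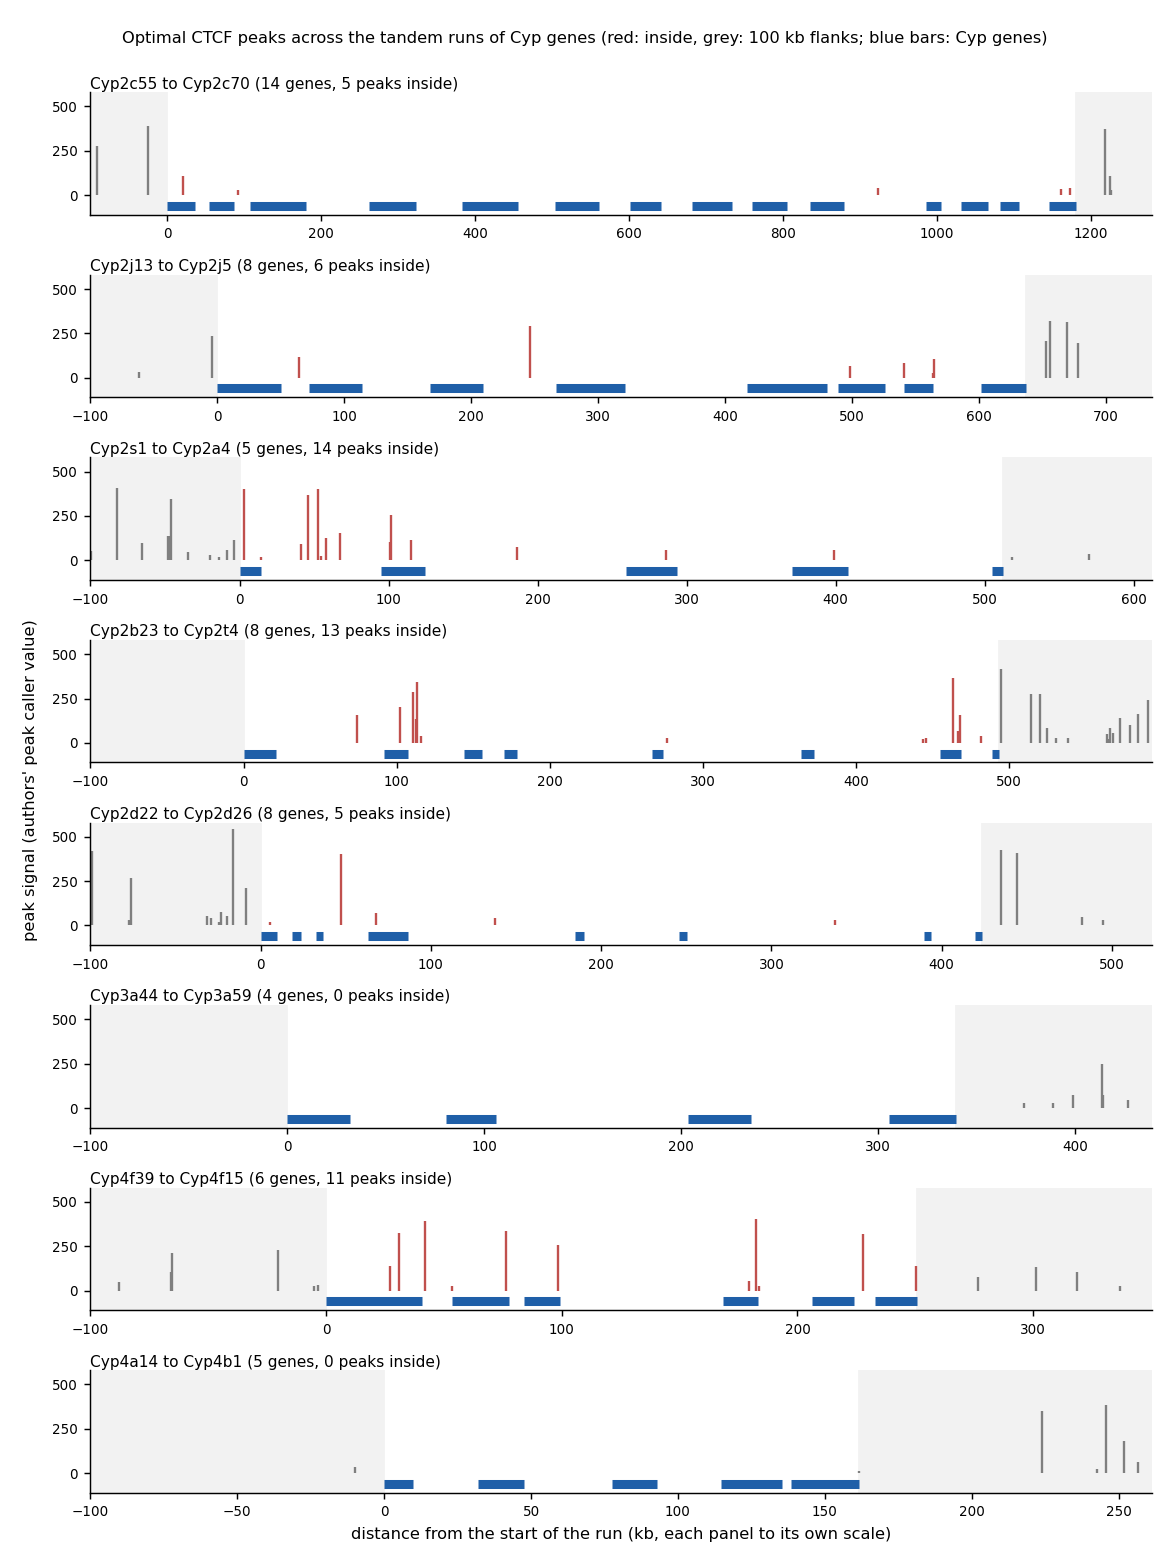
Optimal CTCF peaks along the 8 tandem runs (x axis, kb from the start of the run, each panel to its own scale; y axis, signal), longest run at the top. Red lines are peaks inside a run, grey lines peaks in the shaded 100 kb flanks, and blue bars are Cyp genes. The Cyp2c panel shows tall peaks of 392 and 375 outside both ends and 5 lower ones inside, and the Cyp3a panel shows none inside.

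The Cyp2c run, 14 genes for drug and arachidonic acid oxidation over 1180 kb and with no other coding gene, held 5 peaks. Its left border peak stood at 392, 24.9 kb before the run in an intron of the pseudogene Cyp2c52-ps, with replicate signals of 219 and 176. Its right border peak stood at 375, 38.3 kb beyond the run in an intron of Pdlim1, with replicate signals of 215 and 163. The inside peaks were lower than both borders, at 108, 27.9, 42.6, 34.8 and 38.3 in order along the chromosome.

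Between the inside peaks of 27.9 and 42.6 lay 831 kb without an optimal peak, which held 8 genes whole, from Cyp2c66 to Cyp2c69. Cyp2c39 was the member farthest from any peak, at 411891 bp. Only Cyp2c70, at the far end and known for bile acid hydroxylation in mice, had a peak within 10 kb (38.3, at 6622 bp). The run held 88 motif matches, of which 4 lay under a peak. None of the 13 matches with at least 90% of unique 36-base windows within 100 bp lay under a peak (0%, exact interval 0 to 24.7). This 0 depends on the 90% cut. The 4 matches under a peak had 87.1%, 83.1%, 83.6% and 51.2% of unique windows, in order along the chromosome.

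The printed Cyp2c inside match scored 26.0 on the motif matrix, above the borders (19.4 on the left and 22.9 on the right), and its peak had a signal of 27.9. The printed Cyp2c match without a peak scored 16.6, with 48.8% of the 36-base windows around it unique. Motif score and peak signal thus did not rank these sites alike. The sites also differed in unique windows, at 83.1% around the inside match and 100% around both border matches. The part of this in the ranking was not tested. Bases equal to the consensus came to 17 of 19 in the inside match, 10 of 19 at the left border and 13 of 19 at the right border.

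The Cyp3a run, 4 drug-oxidising members over 339 kb, held no optimal peak. It lay in a stretch of 782 kb between peaks of 18.5, in an intron of Cyp3a57, and 26.0, beyond Cyp3a59. That stretch also held the member Cyp3a16 whole. Cyp3a57 and Cyp3a16 belong to the same family but lie beyond the 200 kb limit between members that defines the run. Genes with symbols of another form, such as Cyp3a41a, were not counted in the run or the stretch. Cyp3a44 was 342262 bp from the nearest peak, Cyp3a11 268172 bp, Cyp3a25 138518 bp and Cyp3a59 68869 bp. None of its 47 motif matches lay under a peak, and only 3 had at least 90% of unique windows within 100 bp. The printed Cyp3a match is one of those 3, scored 20.9 and had 100% unique windows, and no optimal peak covered it. The relaxed lists held 1 peak in replicate 1 and 5 in replicate 2 inside the run, none shared by both.

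The Cyp4a14 to Cyp4b1 run, whose enzymes hydroxylate fatty acids, also held none between its ends. Its border peaks were 32.6 on the left and 13.5 on the right, 47 bp from the TSS of Cyp4b1. The peak at Cyp4b1 was the weakest peak of any member. In the Cyp2j run, 8 genes known for making epoxides of arachidonic acid, the strongest of 6 inside peaks reached 293 in the pseudogene Cyp2j15-ps. Its borders were 237, in an untranslated region of Hook1, and 206, beyond Cyp2j5. Cyp2j9 alone had peaks within 10 kb, of 29.3 and 104.

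The Cyp2d run, whose enzymes oxidise many drugs, had a peak of 400 between genes, 10520 bp from the nearest start of Cyp2d10 and so just outside the 10 kb limit. Its borders were 213 on the left and 426 on the right, which lay 11153 bp from Cyp2d26. Cyp2d9 had a peak of 68.3 in its intron and Cyp2d22 a peak of 21.8. The other inside peaks were 39.7 and 32.1.

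Both chromosome 7 runs combined strong peaks with long empty stretches. From Cyp2s1 to Cyp2a4, the 14 inside peaks lay in the part of the run nearer Cyp2s1, except those in introns of Cyp2b13 (56.7) and Cyp2b9 (59.9). They were led by 403 and 370.5 between genes and 402 in a noncoding exon of Cyp2s1, an epithelial enzyme. Cyp2b10, the target of the drug sensor CAR, had 3 peaks of 258, 117 and 105. Cyp2b13, Cyp2b9 and Cyp2a4 had none within 10 kb, with 38.4%, 43.7% and 42.8% unique windows. The border peaks were 116 on the left and 17.9 on the right.

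From Cyp2b23 to Cyp2t4, the strongest inside peak was 364, in an intron of Cyp2f2, the enzyme of lung club cells that activates naphthalene. Cyp2b19, of the skin, had peaks of 288 and 201. The right border peak of 418, in an intron of Egln2, was also the strongest peak near any tandem-run gene, 4922 bp from Cyp2t4. The left border peak of 34.8 lay 293 kb away in Nlrp9c. Cyp2a5, which oxidises nicotine and coumarin, was 54533 bp from the nearest peak and had 40.3% unique windows.

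The Cyp4f run was the best covered. It held 11 peaks in 251 kb, 43.9 per Mb, and 82.7% of its windows were unique, the highest of the 8 runs. Cyp4f37 had the strongest peak (401, in an untranslated region, replicate signals 216 and 186). Cyp4f39, known for the skin barrier lipid acylceramide, had 5 peaks, led by 392 and 326. Cyp4f16 had 335, at 7589 bp in an untranslated region of its neighbour Cyp4f17. Cyp4f15 had 321, and Cyp4f40 had none within 10 kb (12989 bp). The borders were weaker than these, at 32.4 on the left and 77.5 on the right.

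Among the steroid and sterol genes, peaks of high signal lay near hormone synthesis genes as well as cholesterol and vitamin D genes. Cyp11a1, which cleaves the cholesterol side chain as the first step to all steroids, had a peak of 384 with replicate signals of 219 and 169, 7863 bp away. Cyp17a1, the hydroxylase and lyase on the way to androgens, had a peak of 386 in its own intron, 422 bp from a TSS, with replicate signals of 234 and 156. Cyp19a1, the aromatase that makes oestrogen, had 261 in a noncoding exon (145 and 118). Cyp21a1, the adrenal hydroxylase that lies beside the complement gene C4a, had 3 peaks of 190, 117 and 110, the strongest in an intron of C4a.

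The adrenal genes Cyp11b1, for the last step to corticosterone, and Cyp11b2, the aldosterone synthase, had no peak within 10 kb. The nearest, with a signal of 88.6, lay 31478 bp from Cyp11b1 and 16803 bp from Cyp11b2.

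Peaks also lay near genes of vitamin D. Cyp27b1, which makes active vitamin D, had 426 in a coding exon of March9, 9695 bp away and nearer to the March9 start, and 135 in its own intron. Cyp24a1, which breaks vitamin D down, had 204 in its intron (119 and 87.6) and 158 at 310 bp. Cyp27a1, a mitochondrial sterol hydroxylase of bile acid synthesis that also acts on vitamin D, had 92.9 at 349 bp with no motif. Cyp2r1, another vitamin D hydroxylase among the remaining genes, had 155 at 239 bp.

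Among cholesterol and bile acid genes the range was wide. Cyp46a1, which clears cholesterol from the brain, had the strongest peak of the class (488, replicate signals 293 and 199), 1176 bp before a TSS, and 3 more of 355, 128 and 49.1. Cyp39a1 and Cyp7b1, hydroxylases of oxysterols, had 67.7 and 28.6. Cyp8b1, which makes cholic acid, had 30.6 at 3 bp from its TSS with no motif. Cyp7a1, the rate-limiting enzyme of bile acid synthesis in liver, had none within 10 kb, the nearest being 222 at 17550 bp.

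The strongest of all member peaks lay near a remaining gene. Cyp2w1, an enzyme of the fetal gut and of tumours, had 5 peaks, of which the strongest reached 545, within the top 0.261% of optimal peaks, in an intron of its neighbour 3110082I17Rik. A peak of 462 lay in its own intron, 847 bp from a TSS. The 3 Cyp26 genes degrade retinoic acid. Cyp26b1 had 6 peaks led by 415, Cyp26a1 had 411 at 6026 bp, and Cyp26c1 had 172 in a coding exon with no motif.

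The Cyp1 genes are induced by the aryl hydrocarbon receptor. Cyp1b1 had 404 at 694 bp, and Cyp1a1 and Cyp1a2 shared a peak of 126 in an intron of Cyp1a1. Outside runs, Cyp4f13 had 369, Cyp2u1, a fatty acid hydroxylase, had 344, Cyp2e1, which oxidises ethanol, had 24.7, and Cyp20a1, of no settled function, had 33.7. The 4 remaining genes without a peak were Cyp4v3 (10497 bp, just outside), Cyp3a57 (21131 bp), Cyp4a29 (39448 bp) and Cyp3a16 (103305 bp). Of members with a peak, Cyp4x1 had the nearest peak closest to the limit (9057 bp).

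In all, 90 distinct peaks lay within 10 kb of a member TSS, 3 of them shared by neighbouring members, and a member was the nearest coding gene for 84. Their median signal was 102, against 76.6 for all optimal peaks. By position, 51 lay in introns, 20 between genes, 7 in coding exons, 6 in untranslated regions and 6 in noncoding exons. A motif was present in 60 (66.7%, 55.9 to 76.3), against 70.2% of all optimal peaks, and in 2 of the 90 windows lying 1 kb away.

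Member peaks with a motif were stronger than those without. The median signal was 145 for the 60 with a motif (22.01 to 545) and 32.8 for the 30 without (13.5 to 364), and the ranges overlapped. Within 1 kb of a member TSS, 13 of 27 peaks had a motif (48.1%, 28.7 to 68.1), against 47 of 63 farther out (74.6%, 62.1 to 84.7). The strongest peaks without one were those in introns of Cyp2f2 (364) and Cyp4f39 (326). The same splits were not made over all optimal peaks, so they are not shown to be particular to members.

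Both replicates held most member peaks. A summit of the strongest peaks of each replicate, taken up to the number of optimal peaks, lay within 100 bp of 73 of the 90 in both (81.1%, 71.5 to 88.6), against 83.2% of all optimal peaks. Tandem-run genes had 22 of 31 in both (71.0%), remaining genes 27 of 32 (84.4%) and steroid and sterol genes 24 of 27 (88.9%), with overlapping intervals (52.0 to 85.8% for tandem-run genes, 70.8 to 97.6% for steroid and sterol genes). The median ratio of replicate 1 to replicate 2 signal was 1.34, against 1.33 over all optimal peaks, of which the middle 90% ran from 0.826 to 2.62.

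The members that differed most between replicates were these. A Cyp26b1 intron peak of 22.6 had 18.96 in replicate 1 and 4.55 in replicate 2, a ratio of 4.17. A Cyp2j9 peak had a ratio of 3.69, the peak shared by Cyp4f14 and Cyp4f13 had 3.36 and the Cyp2u1 peak of 101 at 148 bp from a TSS had 3.25. At the other end were Cyp4f39 (0.513), Cyp2f2 (0.530) and Cyp4x1 (0.594). Weak peaks of Cyp17a1 (28.5), Cyp26b1 (20.01) and Cyp2s1 (19.02) had no summit within 100 bp in the replicate 2 list. Within 300 bp, the Cyp17a1 and Cyp2s1 peaks had a summit in both replicates, and the Cyp26b1 peak did not.

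**Figure D5:**
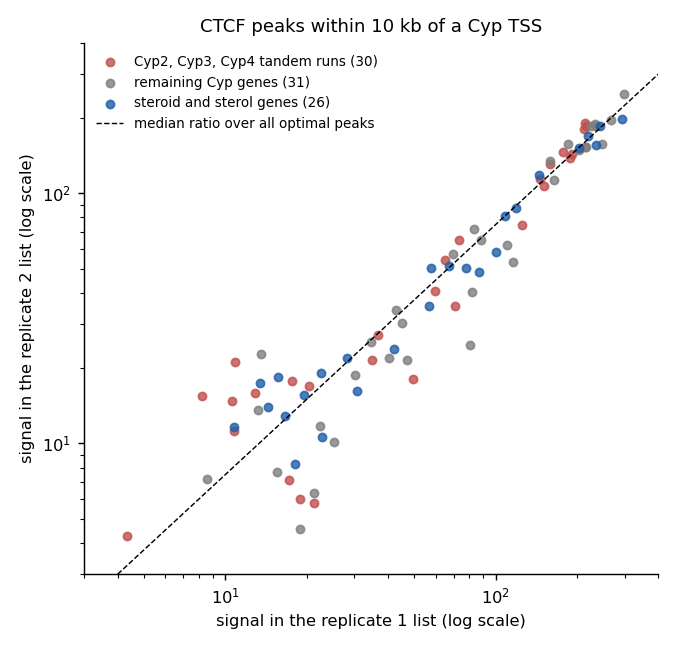
Signal of each peak within 10 kb of a Cyp TSS in the replicate 1 list (x axis) and the replicate 2 list (y axis), both on log scales, by class of gene. Weak peaks of Cyp17a1, Cyp26b1 and Cyp2s1 that have no replicate 2 value are not drawn. The dashed line is the median ratio over all optimal peaks (1.33); the Cyp26b1 peak with a ratio of 4.17 lies lowest under it near 18.96 on the x axis.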

How the data were processed

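Per the descriptions deposited with the samples, the authors made relaxed peak lists of each replicate against a control, and optimal and conservative lists after IDR, in mm10. Aligner, caller and IDR settings: not given in the sources used here. Read depth behind a peak is unknown. Deposited with each peak are its signal, not scaled between lists, a score (537 to 1000 in the optimal list), −log10 of a q-value (0.270 to 5.12) and the summit offset in bp. Signal and summit were used. The 74283 optimal peaks on chromosomes were analysed.

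Genes were those of GENCODE M21. Distances ran from a summit to the nearest TSS of any transcript. A motif matrix of 19 positions came from 988 of the 1000 strongest chromosome 1 peaks. A motif was called when it lay wholly within 50 bp of a summit at a score of 11.6, met by 1% of 20000 random windows. The printed scores are sums of log odds on this matrix. Distances, matrix and 36-base windows were tested on simulated data. Intervals are exact 95% Clopper-Pearson intervals, except the Newcombe interval of the difference and order-statistic intervals of medians, and cover counting error only.

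Any member could be named, with full values for steroid and sterol genes, the 3 strongest of each run, inside and border peaks, and members differing most between replicates. The extra printed sequences, the end and inner genes and the analysis of unique sequence were chosen after values were seen. Members and lists were chosen with earlier results of these data known. With 1 group, no test between conditions was made. Scripts ran in Python 3.11.15 with scipy 1.17.1, pandas 2.3.3, numpy 2.4.6, matplotlib 3.10.9 and numba 0.67.0.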

Additional observations from a re-analysis of the deposited data

Results flagged for a closer look

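Outside the optimal list, 42 peaks of the relaxed lists lay within 10 kb of a member TSS with summits in both replicates within 100 bp of each other, and over 300 bp from any optimal summit. They drew attention because they are a replicated signal that the comparisons above do not use. Their signals were low, with medians of 5.80 in replicate 1 and 4.63 in replicate 2, and 20 had a motif (47.6%). Of the 49 members without an optimal peak, 8 had such a peak, among them the steroid genes Cyp11b1 and Cyp11b2, which share it, and 3 had it with a motif (Cyp2c54, Cyp2a12 and Cyp4v3). Such peaks were not counted over all coding genes, so these counts are not shown to be particular to members.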

How the results depend on the processing

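Over 82 alternatives, 65 values stayed within their interval, or within 1.5 times for peaks per Mb, 17 moved and 0 reversed. The share of tandem-run genes stayed below that of steroid and sterol genes in all 12 alternatives for the difference, between −56.2 and −29.2 points. With members in mostly unique sequence, an alternative added after seeing the data, the share of all Cyp genes was 71.9% and of tandem-run genes 54.2%. Steroid and sterol genes then stood at 83.3%, and their interval overlapped that of tandem-run genes. Within 1 kb the shares were 26.6% of all Cyp genes, 13.8% of tandem-run genes and 40.9% of remaining genes. Within 50 kb they were 78.7% of all, 67.2% of tandem-run, 95.5% of remaining and 100% of steroid and sterol genes. With the 50% strongest optimal peaks they were 31.9% of all and 54.5% of remaining genes, and there were 7.75 peaks per Mb inside the runs and 25 in the flanks, fewer by construction. The median signal inside the runs was 57.1 on the replicate 1 scale and 40.8 on the replicate 2 scale. The border median stayed within its interval but ran from 39.9 (replicate 2 scale) to 225 (run gap up to 500 kb), and the order of inside and border medians changed with the run gap. Peaks found in both replicates were 96.7% with the whole relaxed lists, and peaks with a motif 38.9% at the level met by 0.1% of random windows. Leaving out a replicate gave 44.7 to 45.7% of all Cyp genes, 24.1% of tandem-run genes, 77.3 to 81.8% of remaining genes, 78.6% of steroid and sterol genes, a difference of −54.4 points, 13.3 to 13.5 peaks per Mb inside the runs and 46.9 to 48.1 in the flanks. No paired analysis was possible because there is 1 group. The cause of sparse peaks in repeated sequence was not tested, and a control alignment or read depth was not used here.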
